A study of Homo sapiens with 3 samples.

Results

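The genes described here mostly encode proteins of the spliceosome, the serine- and arginine-rich (SR) proteins and the heterogeneous nuclear ribonucleoproteins (hnRNPs). They were measured in the hepatoma line HepG2, a widely used human model of liver cells. They were chosen by gene symbol, namely those beginning with SNRP or HNRNP, or with LSM, PRPF, SF3A, SF3B or SRSF followed by a digit. U2AF1, U2AF2 and SF1 were added. The rule also takes in the pseudogenes SNRPD2P2 and HNRNPA3P1, the latter counted among the hnRNPs. It further takes in LSM proteins with roles outside the spliceosome, such as LSM1, LSM10 and LSM14A. All are called splicing genes below for short. Of 18417 genes with a probe set that lists a single gene symbol, 80 met the rule, and 74 of them had a mean value over the 3 arrays at or above the 40th percentile of all genes (log2 6.66). The 3 arrays held RNA of cells treated with graphene oxide (GO), of cells treated with its reduced form (rGO) and of untreated control cells, with 1 array each. All came from the same cell line grown in MEM medium, each material was given for 24 h at its own EC20, the dose tied to a 20% effect in viability assays, and no concentrations are stated. Every value below is a log2 expression value of 1 probe set in 1 array, or a difference of such values between 2 arrays, so none has a replicate error, no test exists, and precision is limited by how few arrays there were.

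The spliceosome removes introns from pre-mRNA. Its small nuclear ribonucleoproteins (snRNPs) are each built on an RNA held by a ring of Sm proteins, or by the related LSM ring in the case of U6, and they recognise the splice sites and the branch site before the catalytic core forms. SR proteins bind exons and mostly promote the use of nearby splice sites, whereas hnRNPs coat nascent transcripts and often oppose them, so the balance of these families shapes which exons are kept. Many SR proteins and hnRNPs are also known to limit their own mRNAs through alternative splicing coupled to decay.

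Across the 74 genes, the median difference was -0.05 for GO minus control and 0.04 for rGO minus control. All 11050 genes past the level filter had medians of 0.01 and -0.01. In the GO array 43 of the 74 were below control, a share of 58.1% where 48.9% of all genes past the filter were below it. In the rGO array 51 of the 74 were above control, 68.9% where 46.8% of all genes were. The robust SD of the differences (the scaled median absolute deviation) over all genes past the filter was 0.24 for GO and 0.12 for rGO, and it mixes variation between dishes and arrays with any effect of the exposure.

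The 3 families set side by side had different medians. In GO minus control the median was -0.13 over 10 genes of the snRNP core (SNRP symbols), -0.20 over 11 SR proteins and 0.04 over 17 hnRNPs. In rGO minus control the median was -0.03 for the snRNP core, 0.06 for the SR proteins and 0.09 for the hnRNPs. The medians of SR proteins and hnRNPs lay 0.24 apart in the GO comparison (SR minus hnRNP -0.24) and 0.04 apart in the rGO comparison (-0.04). The snRNP core minus the hnRNPs gave -0.17 with GO and -0.12 with rGO, and the snRNP core minus the SR proteins gave 0.07 with GO and -0.08 with rGO. By means in place of medians, the snRNP core minus the SR proteins was -0.10 with GO, with the low values of SNRPG and SNRPE counted in full. With 1 array per group these distances between families could not be tested. The GO and rGO differences share the control array, so they are given side by side and not as independent findings.

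**Figure D1:**
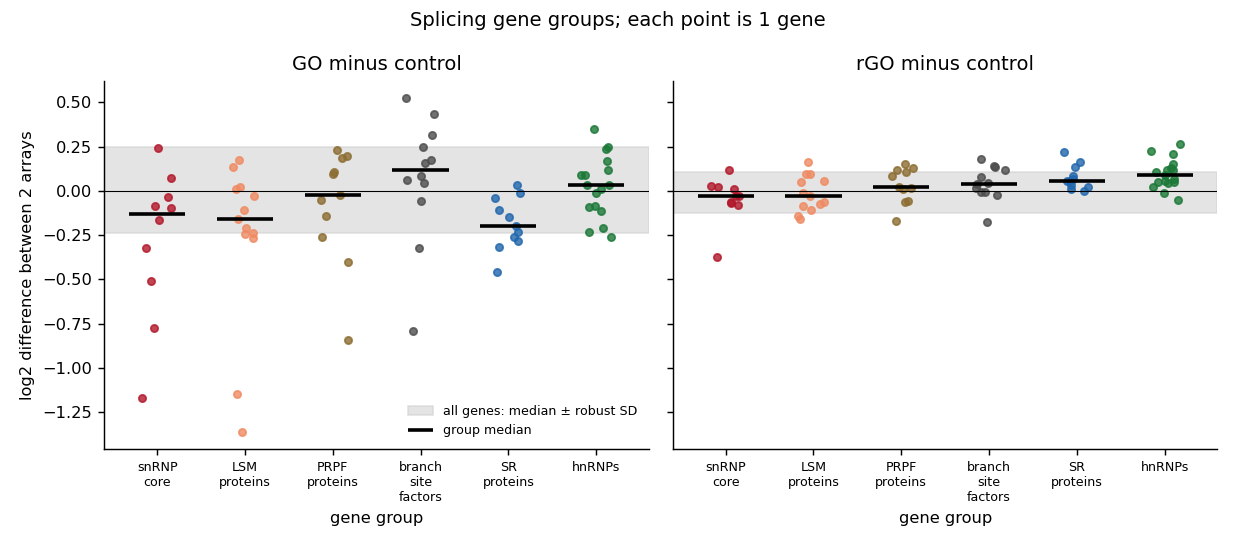
Log2 difference between 2 arrays (vertical axis) for each gene past the level filter, by gene group, for GO minus control (left) and rGO minus control (right). Points are genes, black bars are group medians, and the grey band is the median of all 11050 genes plus or minus their robust SD (0.24 with GO, 0.12 with rGO). The SR proteins sit around -0.20 with GO, the hnRNPs around 0.04, and the lowest points belong to the snRNP core and LSM groups.

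Of the 74 genes, 6 reached a 1.5-fold lower value after GO than in the control (8.11%, against 4.23% of all genes past the filter), and 0 were at least 1.5-fold higher (1.91% of all genes). The 6 were LSM3, SNRPG, LSM5, PRPF39, SF3B6 and SNRPE. At 2-fold lower the count was 3 (0.914% of all genes), namely LSM3, SNRPG and LSM5. At a looser threshold of 0.32 on the log2 scale, 10 were lower after GO (13.3% of all genes) and 3 higher (9.61%), so the share lower was close to that of all genes. In rGO minus control 0 of the 74 were at least 1.5-fold higher (0.0271% of all genes) and 0 were at least 1.5-fold lower (0.127%), and at the looser threshold 1 was lower (1.49%). In GO minus rGO, 15 were lower (11.5%) and 2 higher (8.58%) at the looser threshold, and 2 were at least 2-fold lower (0.534%).

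For 5 of the 6 genes lowest after GO and for the pair highest after GO, the 100 bases just before the annotated start are shown, to let the promoters of genes at the opposite ends of the list be read together. They were taken from RefSeq promoter sequences on GRCh38.p14, which cover 250 bases before to 50 after each start. Capitals mark matches, on either strand, to any of 7 motifs: ETS (CCGGAAG), NRF1 (GCGCATGC), YY1 (AAGATGGC), the CCAAT box (CCAAT), the GC box (GGGCGG), the TATA box (TATAAA) and the E-box (CACGTG), with 0 bases shared between overlapping matches in these stretches. PRPF39 had no entry.
LSM3 (chr3:14178717-14178816, + strand): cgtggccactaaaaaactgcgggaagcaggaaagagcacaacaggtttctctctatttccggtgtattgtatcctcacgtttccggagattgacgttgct
SNRPG (chr2:70293459-70293558, - strand): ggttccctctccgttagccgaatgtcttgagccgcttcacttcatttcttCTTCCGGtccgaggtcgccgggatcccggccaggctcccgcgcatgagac
LSM5 (chr7:32490381-32490480, - strand): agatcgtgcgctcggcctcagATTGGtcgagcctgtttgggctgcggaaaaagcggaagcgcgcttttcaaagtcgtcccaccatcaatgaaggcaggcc
SF3B6 (chr2:24076327-24076426, - strand): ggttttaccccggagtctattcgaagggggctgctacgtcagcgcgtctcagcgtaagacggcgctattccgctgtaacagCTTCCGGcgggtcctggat
SNRPE (chr1:203861747-203861846, + strand): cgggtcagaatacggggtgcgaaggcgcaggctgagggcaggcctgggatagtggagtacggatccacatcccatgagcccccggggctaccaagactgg
SF3A2 (chr19:2236724-2236823, + strand): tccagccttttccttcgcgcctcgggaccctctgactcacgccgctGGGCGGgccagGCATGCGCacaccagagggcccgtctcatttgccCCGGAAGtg
SF3A1 (chr22:30356895-30356994, - strand): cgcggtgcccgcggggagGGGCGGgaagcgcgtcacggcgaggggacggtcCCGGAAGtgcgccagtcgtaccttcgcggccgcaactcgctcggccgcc

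An ETS match stood within the shown bases of SNRPG and SF3B6, both low after GO, and equally of SF3A2 and SF3A1, both high after GO. Of the 7 genes shown, only SF3A2 and SF3A1 had a GC box there, only SF3A2 had an NRF1 match, and LSM5 showed a CCAAT box on the opposite strand. The stretches of LSM3 and SNRPE held none of the 7, although the whole 300-base window of LSM3 held a GC box and that of SNRPE an ETS match. Over the 65 genes past the filter with a promoter entry, an ETS match occurred in 22 windows (33.8%), where 19.7% of 8884 promoters of genes past the filter and 10.7% of all 27305 promoters had one. By group this was 6 of 9 snRNP core promoters and 7 of 11 branch site factor promoters, against 2 of 10 for SR proteins and 3 of 16 for hnRNPs. LSM proteins had an ETS match in 2 of 10 and PRPF proteins in 2 of 9, so the 6 families did not split into spliceosome proteins and regulators. The GC box was found in 41 of 65 (63.1%), below the 70.9% of genes past the filter and above the 44.6% of all promoters. Median GC content was 62% over the 65 windows and 65.7% over the 8884 of genes past the filter. By family it ran from 58.7% (snRNP core) to 66.7% (branch site factors). Its part in the motif shares was not tested. The remaining shares over the 65 were 41.5% for the CCAAT box (36.6% of genes past the filter, 35.7% of all promoters), 9.23% for the E-box (10.6% and 7.43%), 7.69% each for YY1 (5.80% and 3.03%) and the TATA box (5.80% and 12.0%), and 6.15% for NRF1 (5.58% and 3.27%). Median GO minus control was -0.07 for the 22 genes with an ETS match and -0.03 for the 43 without. That order turned within the SR proteins, at -0.04 for 2 with a match and -0.22 for 8 without. For the GC box the median was 0.03 for the 41 genes with a match and -0.17 for the 24 without, but this order turned within 2 of the 6 families. There, 4 SR proteins with a match had -0.28 and 6 without had -0.13. Likewise 4 PRPF genes with a match had 0.02 and 5 without had 0.11. These matches are descriptions of letters and not of bound factors.

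The Sm ring is the heptamer that every major snRNP except U6 carries. All 7 measured ring genes were below control in the GO array (6 of 7 after quantile normalization), with a median of -0.16. Of all genes past the filter, 48.9% were below control in that array. SNRPG, the G subunit, had values of 9.61 in the GO array, 10.41 in the rGO array and 10.78 in the control. It was 2.25-fold lower with GO (-1.17) and also the lowest of the 74 genes with rGO (-0.37, 1.30-fold lower). SNRPE, the E subunit, had 9.13 in the GO array, 9.93 in the rGO array and 9.91 in the control, so the rGO array matched the control to within 0.02 and the GO array lay 1.71-fold lower (-0.78). SNRPD1, which binds directly beside SNRPD2 in the ring, had 8.59 in the GO array, 9.07 in the rGO array and 9.10 in the control (-0.51 with GO).

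The other ring subunits stayed nearer the control. SNRPF stood at -0.16 in GO minus control, SNRPB at -0.10, SNRPD2 at -0.09 and SNRPD3 at -0.03. Each of these lay within the robust SD over all genes (0.24). In the rGO comparison the ring genes other than SNRPG lay between -0.08 and 0.03. The subunits of 1 ring are assembled in equal number, and their differences after GO ran from -1.17 to -0.03.

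SNRPG and SNRPE each had a further probe set with weaker signal. That of SNRPG read 6.02 in the GO array, 6.51 in the rGO array and 6.53 in the control, so it was lower with GO as well (-0.52) but stood at -0.02 with rGO, where the brighter probe set stood at -0.37. The weaker SNRPE probe set read 4.93 in the GO array, 5.07 in the rGO array and 5.16 in the control (-0.23 with GO). Both weaker probe sets were dimmer than the filter level, so background may mask part of a difference. When both probe sets were averaged, SNRPG stood at -0.84 and SNRPE at -0.50 in GO minus control, so SNRPE no longer reached 1.5-fold.

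The proteins that are particular to the U1 and U2 snRNPs did not share one direction after GO. SNRPA, a U1 protein that binds a stem-loop of its RNA, stood at 0.24 with GO and 0.12 with rGO, and SNRPC, which helps U1 hold the upstream splice site, at 0.07 and -0.03. The U2 protein SNRPB2 stood at -0.32 with GO and -0.07 with rGO. Its partner SNRPA1 lay under the level filter, with 5.97 in the GO array, 6.72 in the rGO array and 6.68 in the control. The GO value of SNRPA1 was 1.63-fold lower than the control, and it lay in the range where background can shrink a difference.

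LSM2 to LSM8 form the ring on U6 RNA, and LSM1 replaces LSM8 in a cytoplasmic ring that works in mRNA decay. In GO minus control the 7 genes of the U6 ring had a median of -0.24, and 5 of 7 lay below 0 (48.9% of all genes). In rGO minus control the median was -0.07, again with 5 of 7 below 0 (53.1% of all genes). LSM3 had the lowest value of all 74 genes after GO: 9.73 in the GO array, 11.00 in the rGO array and 11.09 in the control. That is 2.57-fold lower than control (-1.36) and the 21st lowest of the 11050 genes past the filter.

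LSM5 followed with 8.19 in the GO array, 9.20 in the rGO array and 9.34 in the control, 2.22-fold lower with GO (-1.15) and at -0.14 with rGO. The remaining ring genes lay far closer to the control. LSM6 stood at -0.27, LSM8 at -0.24, LSM7 at -0.16, LSM4 at 0.01 and LSM2 at 0.14 in GO minus control. LSM2 had 3 probe sets with identical values, which count as 1 reading.

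Outside the U6 ring, LSM1 stood at -0.24 with GO and -0.06 with rGO. LSM10 and LSM11 take the place of Sm subunits in the U7 snRNP, which processes histone mRNA. LSM10 stood at -0.21 with GO and -0.16 with rGO, and LSM11, close to the filter level at 6.95 in the GO array, at 0.02 and 0.06. LSM14A, a component of cytoplasmic processing bodies, was the highest of the 13 LSM genes after GO (0.18), while its paralogue LSM14B stood at -0.11 with GO and was the highest with rGO (0.16). A 2nd LSM14B probe set past the filter read 0.01 with GO and 0.07 with rGO, so the sign of that gene after GO depends on the probe set. LSM12, another LSM-domain protein, stood at -0.03 with GO and -0.01 with rGO.

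**Figure D2:**
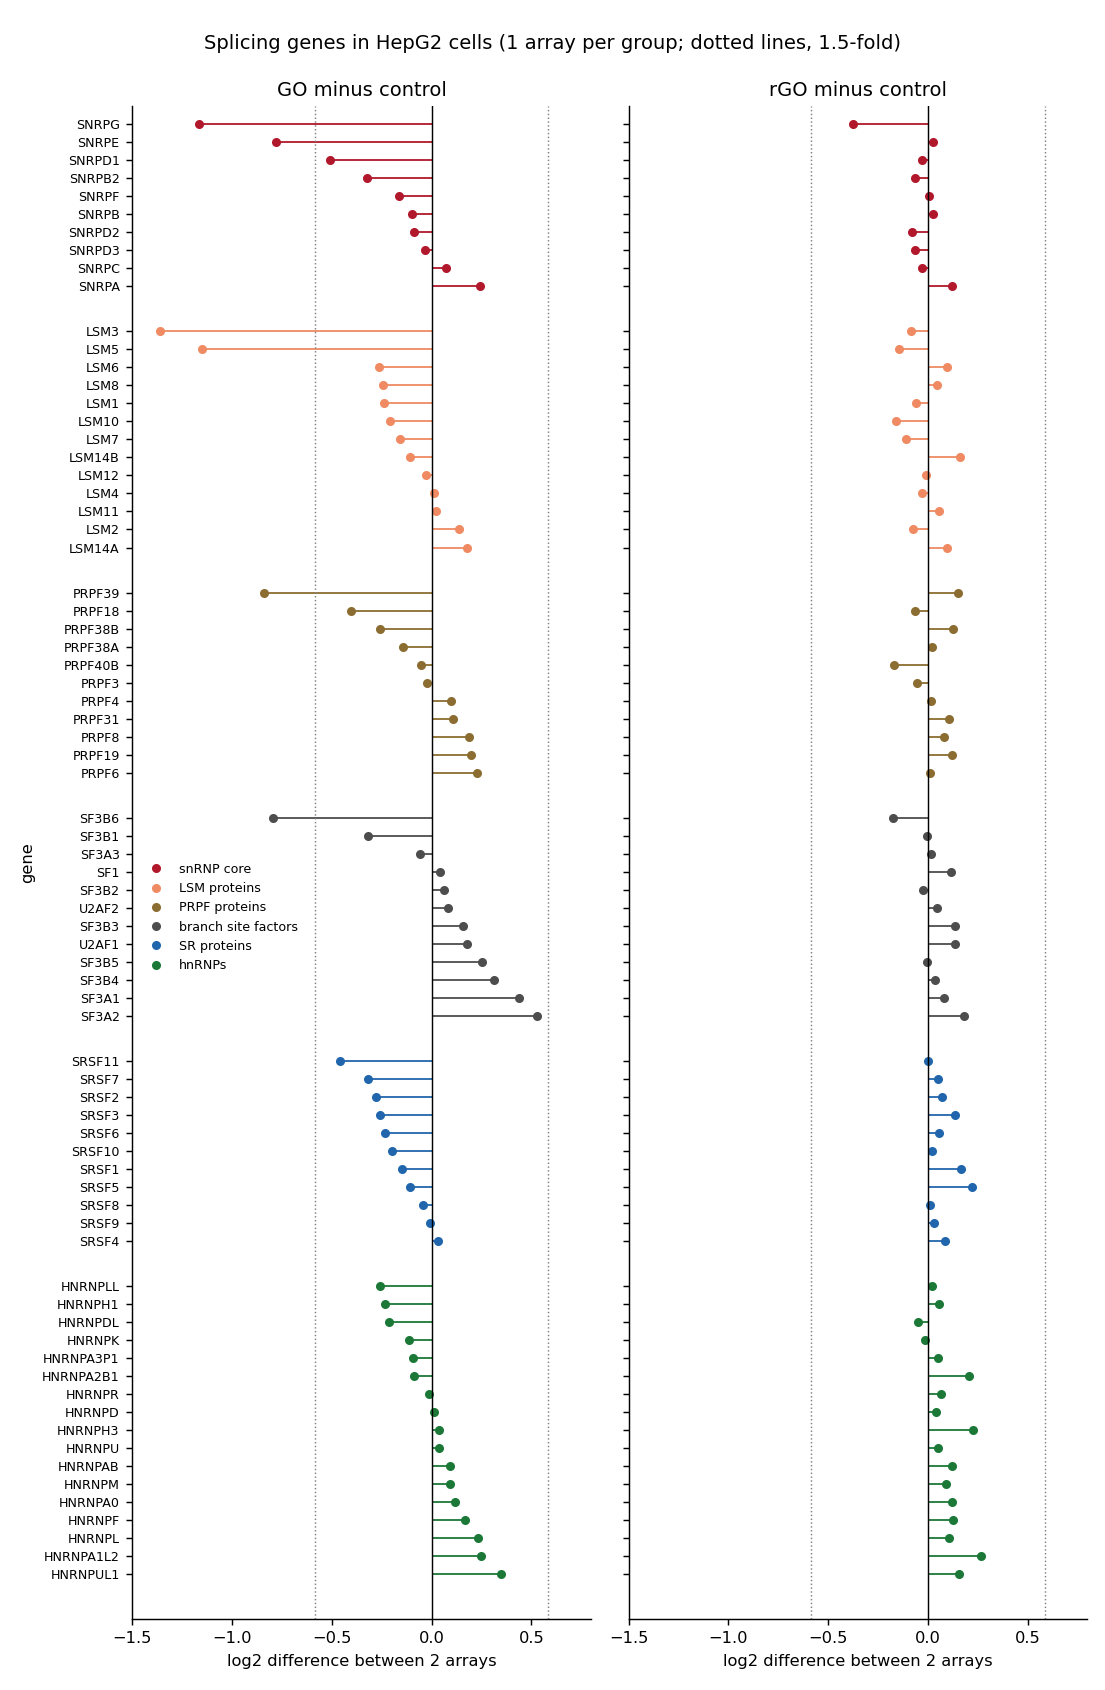
Log2 difference for each of the 74 genes past the level filter, GO minus control on the left and rGO minus control on the right, grouped by family and sorted within a family by the GO difference. Dotted lines mark 1.5-fold. LSM3, SNRPG, LSM5, PRPF39, SF3B6 and SNRPE pass the lower line with GO, and no gene passes either line with rGO.

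The PRPF genes encode pre-mRNA processing factors of several snRNPs and of the catalytic core. Their 11 members had a median of -0.02 in GO minus control, with 6 below 0 and 5 above (48.9% and 51.1% of all genes). In rGO minus control their median was 0.02. With a level filter at the 60th percentile these medians were 0.10 with GO and 0.08 with rGO. PRPF39, a homologue of a yeast U1 snRNP protein, had 7.28 in the GO array, 8.27 in the rGO array and 8.12 in the control. It was 1.79-fold lower with GO (-0.84), and its rGO value was the highest PRPF difference in that comparison (0.15).

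PRPF18, which acts in the second catalytic step, had 7.58 in the GO array, 7.92 in the rGO array and 7.98 in the control (-0.40 with GO). PRPF38B stood at -0.26 with GO and 0.13 with rGO, and PRPF38A at -0.14 and 0.02. PRPF6, PRPF8, PRPF19, PRPF31 and PRPF4 lay above the control with GO, each by less than the robust SD over all genes (0.24). PRPF6, which bridges U5 and U4/U6, stood at 0.23 with GO, PRPF8, the scaffold of the catalytic centre, at 0.19, and PRPF19, the ubiquitin ligase of the complex named after it, at 0.20. PRPF31 and PRPF4 of the U4/U6 snRNP stood at 0.11 and 0.10, and PRPF3 at -0.02. In the rGO comparison PRPF40B had the lowest PRPF value (-0.17) from a level near the filter, and PRPF3 and PRPF18 both stood at -0.06.

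Recognition of the branch site uses SF1, the U2AF dimer that reads the polypyrimidine tract and the AG at the end of the intron, and the SF3A and SF3B complexes of the U2 snRNP. These 12 genes had the highest median of the 6 groups after GO, 0.12, with 9 above 0 (51.1% of all genes), and a median of 0.04 with rGO, with 8 above 0 (46.8% of all genes). SF3A2 had 9.40 in the GO array, 9.06 in the rGO array and 8.88 in the control, a difference of 0.53 (1.44-fold higher with GO) and the highest of all 74 genes. SF3A1 had 9.66 in the GO array, 9.30 in the rGO array and 9.22 in the control (0.44 with GO). The third subunit, SF3A3, stood at -0.06 with GO and 0.01 with rGO.

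Within SF3B, SF3B6, the small subunit that contacts the branch site region, had 10.09 in the GO array, 10.71 in the rGO array and 10.88 in the control. It was 1.73-fold lower with GO (-0.79) and the lowest of the branch site group with rGO (-0.17). SF3B1, the large scaffold that clamps the branch helix, had 11.34 in the GO array, and 11.66 in both the rGO array and the control (-0.32 with GO). SF3B4 stood at 0.31, SF3B5 at 0.25, SF3B3 at 0.16 and SF3B2 at 0.06 after GO, so 1 complex held both some of the lowest and some of the highest differences of the list.

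U2AF1 stood at 0.18 with GO and 0.14 with rGO, U2AF2 at 0.08 and 0.04, and SF1 at 0.04 and 0.12. These early factors lay above the control in both exposures, with GO by less than the robust SD of all genes.

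**Figure D3:**
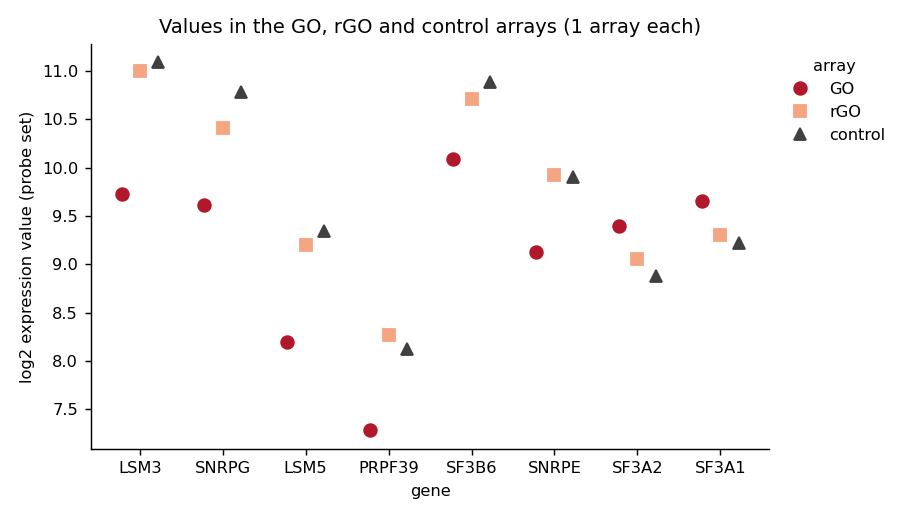
Log2 expression value (vertical axis) in the GO, rGO and control arrays for the 6 genes at least 1.5-fold lower after GO and for SF3A2 and SF3A1, the highest 2. Each symbol is 1 array. In the first 6 genes the GO value lies lowest, with LSM3 at 9.73 in the GO array, 11.00 in the rGO array and 11.09 in the control, and in SF3A2 and SF3A1 it lies highest.

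The SR proteins had the narrowest spread of the 6 groups in both comparisons with the control (robust SD 0.14 with GO and 0.05 with rGO). In GO minus control 10 of the 11 genes past the filter were below 0 (9 of 11 after quantile normalization or median centring), 90.9% against the 48.9% of all genes given above. At least 1.5-fold lower were 0 of the 11 (4.23% of all genes). In rGO minus control all 11 were above 0 (10 of 11 after quantile normalization), where 46.8% of all genes were. SRSF11 (0.0006), SRSF8 (0.009), SRSF10 (0.02), SRSF9 (0.03) and SRSF7 (0.0530) were the lowest of them. Each lay under the robust SD of 0.0539 per probe set, found where a gene had several probe sets. Each difference was small, from -0.46 to 0.03 with GO and from 0.00 to 0.22 with rGO.

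SRSF11 was the lowest after GO, with 11.38 in the GO array and 11.84 in both the rGO array and the control (-0.46). SRSF7, an SR protein with a zinc knuckle, had 9.27 in the GO array, 9.65 in the rGO array and 9.59 in the control (-0.32). SRSF2, which binds both C-rich and G-rich exon motifs, had 10.36 in the GO array, 10.71 in the rGO array and 10.64 in the control (-0.28). SRSF3, the smallest SR protein and a link to mRNA export, had 10.37 in the GO array, 10.76 in the rGO array and 10.62 in the control (-0.26). In each of these 4 genes the GO array held the lowest value.

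SRSF6 stood at -0.23 in GO minus control, SRSF10, a splicing repressor when dephosphorylated, at -0.20, and SRSF1, the founding member of the family, at -0.15. Both probe sets of SRSF10 were past the filter and gave -0.20 and -0.23 with GO. With rGO they gave 0.02 and -0.002, so the sign of SRSF10 after rGO depends on the probe set. SRSF5 stood at -0.11 with GO and had the highest SR difference with rGO (0.22), from 9.30 in the GO array, 9.63 in the rGO array and 9.41 in the control. SRSF1 and SRSF3 followed in the rGO comparison at 0.16 and 0.14. SRSF8, SRSF9 and SRSF4 stayed within 0.1 of the control in both comparisons, with -0.04, -0.01 and 0.03 after GO and 0.01, 0.03 and 0.08 after rGO. SRSF12 lay under the level filter at 6.24 in the GO array, 6.29 in the rGO array and 6.23 in the control.

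Set directly against each other, the GO array was below the rGO array for all 11 SR proteins, with differences from -0.46 to -0.04 and a median of -0.31. In the same GO minus rGO comparison 47% of all genes past the filter were below 0, and all genes had a median of 0.01. The snRNP core had a median of -0.15 and the hnRNPs one of -0.03, which was 0.01 after quantile normalization. At least 1.5-fold lower with GO than with rGO were 6 of the 74 genes (3.2% of all genes), LSM3, LSM5, PRPF39, SNRPE, SNRPG and SF3B6, and 0 were 1.5-fold higher (1.82%). PRPF39 stood at -0.99 and LSM3 at -1.28. This comparison reuses both exposed arrays, so it adds no independent measurement.

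The hnRNPs lay close to the control after GO and mostly above it after rGO. In GO minus control 10 of 17 were above 0 and 7 below, from -0.26 to 0.35, a share near the 51.1% of all genes that were above 0. In rGO minus control 15 of 17 were above 0 (16 of 17 after a loess correction), 88.2% against 46.8% of all genes, from -0.05 to 0.27. No member reached 1.5-fold in either comparison. Of all genes, 1.91% were at least 1.5-fold higher and 4.23% lower with GO, and 0.0271% and 0.127% with rGO.

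HNRNPUL1 was the highest after GO, with 10.89 in the GO array, 10.70 in the rGO array and 10.55 in the control (0.35 with GO, 0.15 with rGO). HNRNPL, a regulator that binds CA repeats, had 11.21 in the GO array, 11.08 in the rGO array and 10.97 in the control (0.23 with GO). Its paralogue HNRNPLL stood at the other end, with 9.05 in the GO array, 9.33 in the rGO array and 9.31 in the control (-0.26 with GO). The same split appeared in the G-run binding family, where HNRNPH1 stood at -0.23, HNRNPH3 at 0.04 and HNRNPF at 0.17 after GO.

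In rGO minus control the highest hnRNPs were HNRNPA1L2 (0.27), HNRNPH3 (0.23) and HNRNPA2B1 (0.21). HNRNPA1L2 is a near copy of HNRNPA1, so its probe set can read that gene. This probe set read 7.21 in the GO array, 7.23 in the rGO array and 6.96 in the control, near the filter level of 6.66. HNRNPH3 had 9.56 in the GO array, 9.75 in the rGO array and 9.53 in the control. HNRNPA2B1, which acts in splicing and RNA transport, had 10.79 in the GO array, 11.08 in the rGO array and 10.88 in the control.

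The lowest hnRNPs after rGO were HNRNPDL (-0.05) and HNRNPK (-0.01). HNRNPDL also stood at -0.21 after GO and HNRNPK, a C-rich sequence binder, at -0.11, whereas HNRNPD stood at 0.01. HNRNPA0 stood at 0.12 in both comparisons, HNRNPAB at 0.09 with GO and 0.12 with rGO, and HNRNPM at 0.09 in both. HNRNPU, HNRNPR and the pseudogene HNRNPA3P1 stood at 0.04, -0.01 and -0.09 after GO and at 0.05, 0.07 and 0.05 after rGO.

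Under the level filter were HNRNPCL1, HNRNPCL2 and the only HNRNPA1 probe set with a single symbol, which read 6.35 in the GO array, 6.53 in the rGO array and 6.38 in the control. The pseudogene SNRPD2P2 also lay under it, at 5.04 in the GO array, 5.09 in the rGO array and 5.13 in the control. The 6 genes under the filter are those 4 with SNRPA1 and SRSF12.

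A further 5 lists of splicing genes give the setting. Of 54 other spliceosome subunits past the filter, 33 were below 0 in GO minus control (61.1%), with a median of -0.11, where 48.9% of all genes past the filter were below 0. At least 1.5-fold lower were 5 (4.23% of all genes) and at least 1.5-fold higher 0 (1.91%). The 5 were PLRG1 (-0.82) and CWC15 (-0.72) of the PRPF19-related complex, CWC22 (-0.80), which delivers the exon junction complex, SNRNP48 (-0.70) of the minor spliceosome, and PHF5A (-0.70), the SF3B subunit that helps hold the branch site. RBM22, of the catalytic core, was the highest (0.36). With rGO their median was 0.04, with 36 of 54 above 0 (46.8% of all genes), PHF5A lowest (-0.31) and IK highest (0.22).

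Of 23 SR-related proteins and SR kinases past the filter, 14 were below 0 in GO minus control (48.9% of all genes), with a median of -0.13, and 5 were at least 1.5-fold lower (4.23% of all genes). CLK1, a kinase that phosphorylates SR proteins, had the lowest value (-0.86), and CLK4, of the same family, stood at -0.62, whereas CLK2 and CLK3 stood at -0.17 and 0.02. CLK4 read 6.64 in the GO array, 7.02 in the rGO array and 7.25 in the control, near the filter level of 6.66. It has a further probe set that is not given here. LUC7L3 (-0.75), PNN (-0.73) and RBM39 (-0.72) were the other 3. SCAF4 was the highest (0.21), close to SRRM1 (0.21) and SRRM2 (0.19). With rGO 18 of 23 were above 0 (46.8% of all genes), with a median of 0.09, from CLK4 at -0.23 to SRRM2 at 0.23.

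Other splicing regulators had a median of 0.09 over 29 genes in GO minus control, with 20 above 0 (51.1% of all genes). They ran from TIA1 (-0.54) to MBNL2 (0.44). At 1.5-fold were 0 of them, where 1.91% of all genes were higher and 4.23% lower. The polypyrimidine tract binder PTBP1 stood at 0.24. With rGO their median was 0.07, with 20 of 29 above 0 (46.8% of all genes), from KHDRBS3 (-0.17) to RBM5 (0.27). The 17 factors that assemble snRNPs had a median of -0.01 with GO and 0.01 with rGO. At least 1.5-fold lower with GO were 2 of the 17 (4.23% of all genes), GEMIN2 (-0.61), which holds the Sm subunits during assembly, and CLNS1A (-0.59), which delivers them. WDR77 (0.37) was the highest. With rGO the range ran from GEMIN4 (-0.20) to GEMIN8 (0.16). Exon junction and export factors had a median of -0.05 over 18 genes with GO, from THOC1 (-0.57) to NCBP2 (0.28), and 0.04 with rGO, from THOC5 (-0.12) to THOC7 (0.14).

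**Figure D4:**
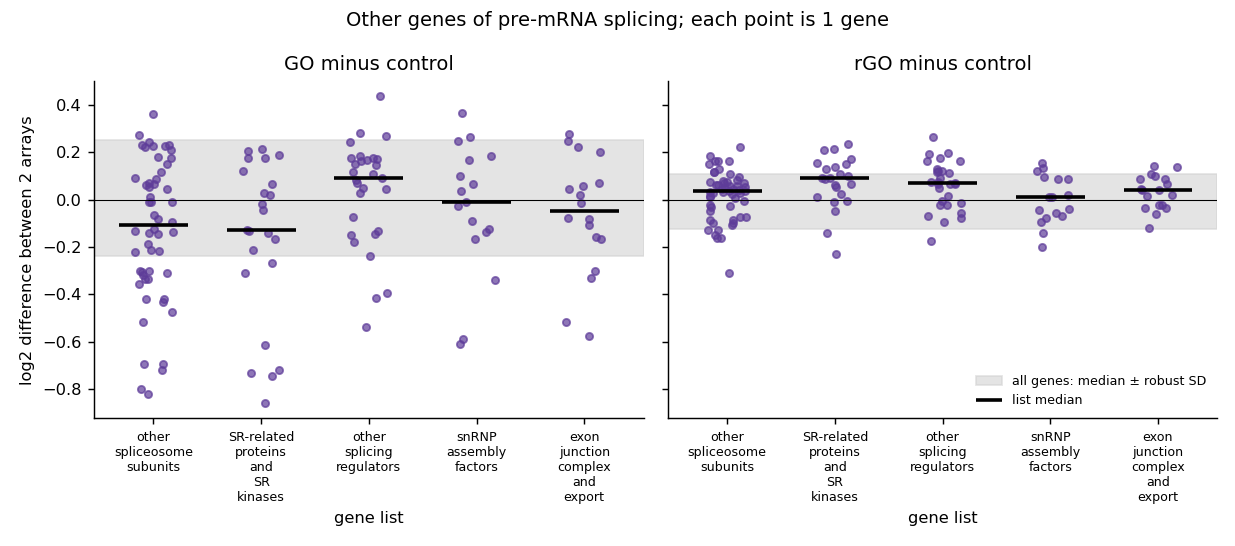
Log2 difference between 2 arrays (vertical axis) for genes of 5 other splicing lists past the level filter, GO minus control on the left and rGO minus control on the right. Points are genes, black bars are list medians and the grey band is the median of all genes plus or minus their robust SD. Low points with GO include CLK1 at -0.86 and PLRG1 at -0.82, and no list has a point past -0.31 with rGO.

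The splicing genes were shorter than genes in general. By RefSeq, the 73 protein-coding genes past the filter had a median genomic length of 15978 bases, against 28305 for 10551 such genes in all. Across the 73, Spearman's rho between length and the GO difference was 0.14, and across all genes 0.02, as descriptions over genes of the same 2 arrays. The 20 splicing genes under 10 kb had a median of -0.13 with GO and the 53 longer ones -0.01, while the corresponding medians over all genes were both 0.01.

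Medians over all 33297 probe sets were 6.63 in the GO array, 6.66 in the rGO array and 6.65 in the control. Of 9 hepatocyte markers, 8 had a single-symbol probe set and all 8 lay past the filter, with lowest values of 10.77 in the GO array, 11.07 in the rGO array and 10.97 in the control. Of these 8, FGB stood at -0.85 and TTR at 0.70 in GO minus control, and the others lay between -0.27 and 0.29. Of 4 measured leukocyte markers only LYZ passed the filter, at 13.43 in the GO array, 13.38 in the rGO array and 13.23 in the control, and PTPRC, CD3E and CD14 lay under it. COL1A1 and PDGFRB were the only ones of 6 fibroblast and endothelial markers to pass, with COL1A1 at 7.36 in the GO array, 7.26 with rGO and 7.43 in the control, and PDGFRB at 7.30 in the GO array, 6.57 with rGO and 6.97 in the control. In RNA from whole dishes, fewer cells in a given state and less RNA per cell cannot be told apart.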

How the data were processed

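RNA of HepG2 cells was measured on 3 Affymetrix arrays, 1 each for GO, rGO and control, after biotin labelling, per the labels. The deposited values are log2 expression values for 33297 probe sets, and RMA and MAS5 are named in the submitters' processing notes without a role or version. The 3 distributions are near-equal, as after a normalization between arrays, and genes are not centred. Other scaling, build and annotation: not given in the sources used here. A difference is exposed minus control, or GO minus rGO.

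Probe sets were named through GEO's platform annotation, which can be old: 19460 had 1 symbol, 1754 several and 12083 none listed here. Each gene was represented by its probe set with the highest mean over the 3 arrays. All 80 chosen genes matched RefSeq by Entrez ID, 69 with a promoter entry. Of the 80, 74 had 1 probe set. The level filter kept 11050 genes. Where a gene past the filter had at least 2 probe sets past it with unequal values (365 genes), their differences disagreed with a robust SD of 0.08 for GO and 0.05 for rGO, per probe set. The call was a 1.5-fold difference. The chosen genes and the lists were set with earlier results of these data known. Named genes were those past 1.5-fold and the extremes of each group, and the others are given as listed members. From the other lists, CLK2, CLK3, SRRM1 and PTBP1 were named outside this rule. Counting and medians were run on simulated data with known shifts. There the shift of the SR proteins was set without noise, so its recovery checks the code and not the family medians. Alternatives were quantile normalization, median centring, loess, other filters, averaged probe sets, means and other folds. The work used statsmodels 0.14.6 for the loess, pandas 2.3.3 with numpy 2.4.6, matplotlib 3.10.9 and scipy 1.17.1 under Python 3.11.15.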

Additional observations from a re-analysis of the deposited data

How the results depend on the processing

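With 1 array per group the limits are set by the number of arrays, and weak probe sets near background understate differences. No paired analysis was possible because each group holds 1 array. A value was taken as moved when it shifted by 0.05 or more on the log2 scale, or, for a count, by more than 1.5 times. By means in place of medians, the GO minus control value was -0.11 for all splicing genes and -0.28 for the snRNP core, and the GO minus rGO value was -0.14, -0.24 and, for the SR proteins, -0.26. The snRNP core minus SR proteins distance after GO turned from 0.07 by medians to -0.10 by means. The LSM means were -0.26 in GO minus control and -0.25 in GO minus rGO, and the PRPF mean was -0.08 in GO minus control. By means, the snRNP core minus the hnRNPs was -0.31 in GO minus control. In GO minus rGO, the snRNP core minus the SR proteins was 0.02 and the SR proteins minus the hnRNPs -0.19. After quantile normalization the GO minus rGO medians were -0.084 for the snRNP core, -0.24 for the SR proteins and 0.09 for the branch site factors. SRSF11 then stood at -0.40 in GO minus control. That setting shifted the median of all genes to 0.03 with GO and -0.02 with rGO, and the loess and median centring moved it by less than 0.1 too. At a looser threshold of 0.32 on the log2 scale, 3 splicing genes were higher (9.61% of all genes past the filter) and 10 lower (13.3%) in GO minus control, 1 was lower in rGO minus control (1.49%), and 2 were higher (8.58%) and 15 lower (11.5%) in GO minus rGO. At 2-fold, 3 were lower in GO minus control (0.914%) and 2 in GO minus rGO (0.534%). The family medians otherwise kept their side of 0 under all alternatives run, except the PRPF median after GO, which was 0.10 with a 60th percentile filter (0.08 with rGO), the PRPF median in GO minus rGO, which was -0.11 as a mean, and the hnRNP median in GO minus rGO. Leaving out pseudogenes and intronless copies, or adding probe sets of several symbols, both chosen after the data had been seen, moved no family median across 0.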

Other observations

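Some well-known members of these families were measured only by probe sets that list several symbols, which the rule leaves out. The 2 probe sets shared by HNRNPC and its near copies read 11.51 and 11.78 after GO, 11.74 and 12.03 after rGO, and 11.79 and 12.08 in the control, giving -0.28 and -0.29 for GO minus control and -0.05 for both in rGO minus control. HNRNPC is an abundant binder of uridine tracts. With GO these shared probe sets stood slightly below HNRNPLL (-0.26), the lowest single-symbol hnRNP past the filter. That gap is smaller than the robust SD of 0.08 per probe set, found where a gene had several probe sets. The values cannot be given to HNRNPC alone. The 4 probe sets shared by HNRNPA1 and its pseudogenes stood between 0.08 and 0.11 in GO minus control and also in rGO minus control, in contrast to the dim single-symbol probe set of HNRNPA1, which stood at -0.02 and 0.15. The 3 shared by HNRNPA3 and HNRNPA3P1 stood between -0.02 and 0.02 with GO and between 0.07 and 0.08 with rGO.

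The probe set shared by SNURF and SNRPN, the tissue-restricted Sm protein, read 9.71 in the GO array, 9.88 in the rGO array and 9.98 in the control (-0.26 with GO). Other probe sets annotated to SNRPN together with SNORD116 small nucleolar RNAs went the other way, at 0.27 and 0.16 in GO minus control, so no direction is given for SNRPN. HNRNPUL2, shared with a read-through transcript, stood at 0.13 with GO and 0.14 with rGO, and HNRNPH2 at -0.08 and 0.04. These values mix genes and carry no replicate error.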
